A study of Mus musculus with 4 samples.

Results

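miR-378a is a microRNA whose hairpin lies in an intron of Ppargc1b, the gene of the nuclear coactivator PGC-1 beta. The rows of the count table were chosen by the identifiers MIMAT0003151 (miR-378a-3p) and MIMAT0000742 (miR-378a-5p), which gave 2 of 2110 rows, 1 for each arm of the hairpin. Both were among the 536 rows with enough counts to be tested. The series compares the miRNAs carried by extracellular vesicles of healthy and peroxide-injured muscle cells. Vesicles, membrane particles that cells release with RNA inside, were spun down from cultures of C2C12, an established mouse myoblast line grown with 10% fetal bovine serum. The WT group held 2 libraries whose treatment label is WT, the damaged group held 2 libraries of cells given hydrogen peroxide, and all 4 carry the genotype label WT. Neither the dose and duration of peroxide nor separate cultures for the replicates appear in the labels, and the p-values therefore reflect only how these libraries vary, which may be technical.

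A microRNA is cut from a hairpin, and usually 1 arm of the hairpin is loaded into Argonaute while the other is largely degraded. Because miR-378a is made from the Ppargc1b transcript, it is known to appear with the programme of mitochondrial and fatty acid oxidation genes that PGC-1 beta drives. In mouse myoblasts miR-378a-3p is known to repress MyoR, an antagonist of MyoD, and in mouse metabolism both arms are known to restrain oxidative capacity through targets such as Med13 and carnitine acetyltransferase. Target mRNAs are recognised mainly through the seed, bases 2 to 8 of the mature sequence.

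On mm10 the hairpin spans chr18:61397835-61397900 on the minus strand, 66 bases long, and starts 2531 bases after the start of Ppargc1b (chr18:61298136-61400431, minus strand). Neither arm overlaps an annotated exon of Ppargc1b, and neither shares bases with another counted entry on either strand. miR-378a-5p is 22 bases long at chr18:61397875-61397896, and miR-378a-3p is 21 bases long at chr18:61397838-61397858. Of 1679 other mature mouse miRNAs of the RefSeq table (GRCm38.p6), miR-378c alone has the seed of miR-378a-3p, and none has that of miR-378a-5p. Over the 20 or 21 bases that can be set side by side, miR-378b, miR-378c and miR-378d each differ from miR-378a-3p by 1 base. The letters of the family are not shown here.

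miR-378b lies on chromosome 11 at chr11:88352839-88352858 (plus strand), miR-378c on chromosome 14 at chr14:46954905-46954925 (minus strand) and miR-378d on chromosome 10 at chr10:126710355-126710376 (minus strand). Of these, miR-378c has the seed of miR-378a-3p, and the seeds of miR-378b and miR-378d are not identical to it. The mature miR-378b begins 1 base later, so its seed is shifted along the same stretch of bases. In miR-378d the base that differs lies within the seed.

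Library totals ran from 4577668 counts (WT replicate 1) to 7638663 (WT replicate 2), with the damaged libraries between. Of the muscle markers, miR-206-3p, miR-1a-3p, miR-133a-3p and miR-133b-3p, 5 of 6 rows were tested. Of these, edgeR, DESeq2 and limma-voom each called 3, all miR-133 rows. The 3 were miR-133b-3p and both copies of miR-133a-3p, rows of 1 mature miRNA that are not independent. Together the list took 29.5% to 33.4% of counts in WT and 35.5% to 38.1% in damaged. Listed entries that may be pieces of longer RNA took 0.212% and 0.324% in WT and 0.665% and 0.707% in damaged. Of their 11 tested rows, edgeR called 5, where it called 9.51% of all 536 rows: miR-6240, miR-2137 and miR-5121 rose, and miR-1983 and miR-5099-3p fell. miR-6240 and miR-6236 were the most abundant, and miR-6236 did not pass in edgeR (adjusted p = 0.0531). DESeq2 and limma-voom each called 9 of the 11, against 21.2% and 14.7% of all their rows, and 10 had an unadjusted p under 0.05 in edgeR, against 30.8%. Of the table's 106 entries that overlap an entry on the opposite strand, 105 were at 0 in all libraries, against 1004 of the other 2004, so a 0 in such an entry does not show that the miRNA was absent. This holds for all 3 of 8 blood cell and liver rows at 0 (miR-142a-3p, miR-122-5p and miR-486-5p), for both endothelial rows, for 8 of the 10 neural rows at 0 of 11, and for 1 of the 3 epithelial rows at 0 of 6. Rows of the neural miR-124-3p and of the epithelial miR-141-3p and miR-200b-3p were at 0 without such an overlap. The neural rows together took 2.18e-05% of counts in WT replicate 1 and 0% in WT replicate 2 and both damaged libraries. Blood cell and liver markers, which can also come with serum, took 0.172% and 0.152% in WT and 0.155% and 0.148% in damaged, and epithelial markers at most 0.00120%. The most abundant blood rows were miR-451a, at 1587 CPM in WT and 1444 CPM in damaged, and miR-150-5p, at 28.9 and 40.6 CPM. Of the tested rows of these lists, 5 and 1 (miR-200c-3p), edgeR, DESeq2 and limma-voom called 0, with 2 and 0 at an unadjusted p under 0.05 in edgeR. The 2 were miR-144-3p (0 and 0 CPM in WT, 1.75 and 1.86 in damaged) and miR-142a-5p (0.221 and 0 against 3.06 and 2.93). Both rows are very low, and DESeq2 gave no adjusted p for miR-144-3p. Bovine reads of the same sequence cannot be separated from mouse reads, and the part of serum in the miR-378a counts was not tested. In vesicles, fewer particles and less RNA per particle cannot be told apart, and all values are shares of the sequenced miRNA.

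miR-378a-3p was abundant in vesicles of both groups, and the groups overlapped. It had 94759 counts in WT replicate 1, 127953 in WT replicate 2, 146789 in damaged replicate 1 and 116767 in damaged replicate 2. These were 2.07% (exact Clopper-Pearson 95% interval 2.06 to 2.08), 1.68% (1.67 to 1.68), 2.13% (2.12 to 2.14) and 1.59% (1.58 to 1.60) of the library, in that order. Replicate 1 was the higher library in each group, and the damaged libraries lay on either side of both WT libraries. With rows of 1 mature miRNA summed, it ranked 11, 11, 11 and 12 in the 4 libraries, of 897 mature miRNAs with a count.

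**Figure D1:**
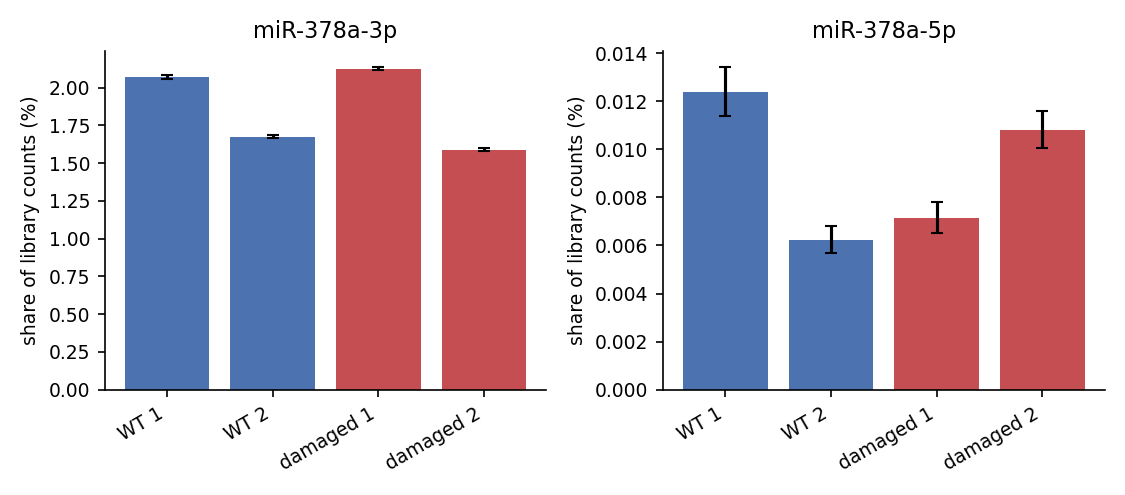
Share of each library's counts (%) taken by miR-378a-3p (left) and miR-378a-5p (right), with bars for single libraries (WT blue, damaged red) and exact 95% binomial intervals as error bars. miR-378a-3p lay between 1.59% and 2.13% and miR-378a-5p between 0.00623% and 0.0124%, and in neither were the damaged libraries apart from the WT libraries.

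Scaled to CPM (counts scaled by library size with TMM normalisation), miR-378a-3p stood at 18893 ± 2956 in WT and 18471 ± 4160 in damaged (SD, n = 2 libraries each). The log2 fold change, damaged over WT, was -0.03 ± 0.20 (SE), with a 95% interval of -0.53 to 0.47 and did not pass edgeR's quasi-likelihood test (adjusted p = 0.949). The interval holds levels in damaged from 0.691 to 1.38 times those in WT, so equality was not shown. DESeq2 and limma-voom gave -0.03 and -0.04 (adjusted p = 0.967 and 0.939). As background, edgeR called 51 of the 536 tested rows, or 9.51%. The size of this change was smaller than in all but 19 of the 536 rows, or 3.54%, where the median size was 0.62. Leaving out single libraries moved it between -0.30 (without damaged replicate 1) and 0.17 (without damaged replicate 2), with no call.

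miR-378a-5p, the arm known in human breast cancer cells to act on regulators of oxidative metabolism, was present at far lower counts. It had 566 counts in WT replicate 1, 476 in WT replicate 2, 493 in damaged replicate 1 and 794 in damaged replicate 2, which were 125, 62.5, 71.9 and 105.6 CPM. The high libraries were WT replicate 1 and damaged replicate 2, so both damaged libraries fell between the WT libraries. The WT libraries averaged 93.9 ± 44.4 CPM, the damaged libraries 88.8 ± 23.8 CPM (SD, n = 2 each). The log2 fold change was -0.08 ± 0.39 (SE), with a 95% interval of -1.06 to 0.90 or 0.481 to 1.87-fold, and did not pass (adjusted p = 0.938 by edgeR). Without WT replicate 2 the value was -0.47, and without WT replicate 1 it was 0.43, neither called.

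**Figure D2:**
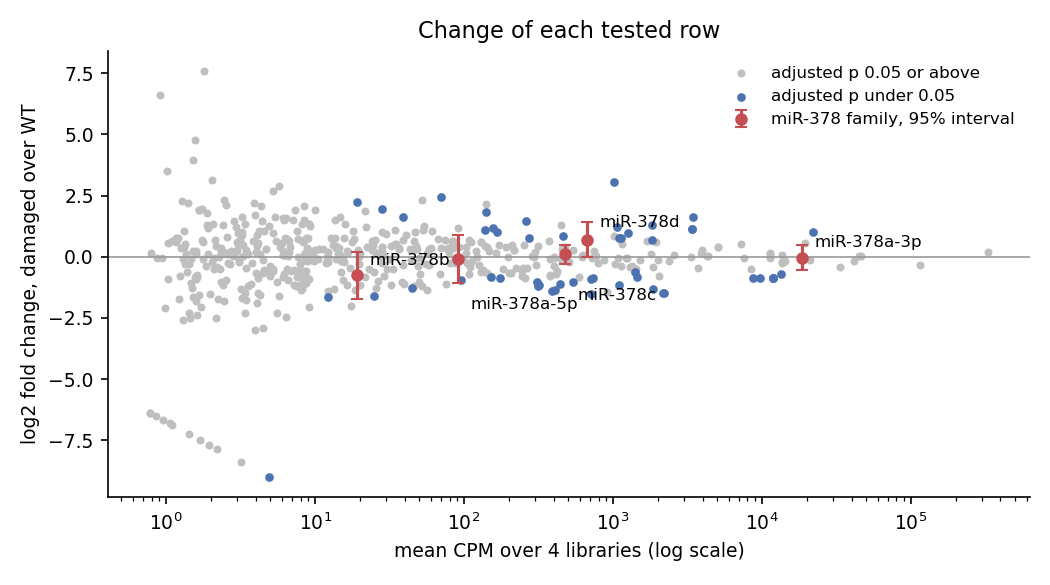
Log2 fold change (damaged over WT) against mean CPM over the 4 libraries (log axis) for the 536 tested rows, grey for an adjusted p of 0.05 or above and blue below it. Red points are the 5 miR-378 family rows with 95% intervals from the edgeR fit, each of which includes 0. Fitted values below -5 belong to rows at or near 0 in damaged, and those above 5 to rows at or near 0 in WT. Neither are a measure of fold.

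The replicates of both arms lay further apart than those of most other rows with at least 100 CPM. The gap between the WT replicates of miR-378a-5p was 1.00 on the log2 CPM scale, and 157 of 159 other rows with at least 100 CPM had a smaller one. miR-378a-5p itself, at a mean of 91.3 CPM, lies below that cut, so it was compared with more abundant rows alone. Its damaged replicates differed by 0.55 in the other direction, larger than in 150 of those 159 rows. For miR-378a-3p the gaps were 0.32 in WT and 0.46 in damaged, larger than in 121 and 145 of 158 such rows, against medians of 0.16 and 0.17. The counting intervals of the single libraries did not overlap within either group for either arm, so these gaps exceeded counting error alone.

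The arms of the hairpin were strongly unequal in every library, with the 3p arm the abundant one. miR-378a-3p had 167 and 269 times the counts of miR-378a-5p in WT replicates 1 and 2, and 298 and 147 times in damaged replicates 1 and 2. The mean log2 ratio was 7.72 ± 0.50 (SD, n = 4 libraries). The 3p arm was higher in 4 of 4 libraries, and the exact two-sided sign permutation test gave p = 0.125, the smallest that 4 libraries allow. Counts are per mature miRNA, and both arms are of nearly the same length, so no length scaling was needed for this ratio.

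The 5p arm took 0.594% (exact 95% interval 0.546 to 0.645) and 0.371% (0.338 to 0.405) of the hairpin's counts in WT replicates 1 and 2. It took 0.335% (0.306 to 0.366) and 0.675% (0.629 to 0.724) in damaged replicates 1 and 2. Damaged replicate 1 was thus the lowest library and damaged replicate 2 the highest, and the groups overlapped. The WT mean of 0.482% ± 0.158 and the damaged mean of 0.505% ± 0.241 (SD, n = 2 each) were compared, and the exact two-sided permutation test gave p = 1, where 2 libraries against 2 cannot go below 0.333. In the test of arm use over all hairpins (edgeR's diffSpliceDGE), the log2 ratio of 3p to 5p differed by 0.04 between damaged and WT (adjusted p = 0.963). As background, 9 of 151 hairpins, or 5.96%, were called in that test. limma on the log2 arm ratio gave -0.02 ± 0.58 (SE), with a 95% interval of -1.70 to 1.66. So wide an interval does not show that arm use was equal.

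Among the 151 hairpins with both arms tested, 64 had more 3p than 5p counts and 87 the reverse. miR-378a ranked 15 of 151 for the ratio of 3p to 5p, and 34 of 151 for the size of the inequality in either direction. Directly above it were Mir652 (mean log2 ratio 8.17) and Mir342 (7.73), and directly below it were Mir22 (7.56) and Mir500 (7.21). Of these, Mir22 has a similar depth, with 599296 counts for both arms over the 4 libraries against 488597 for Mir378a, while Mir342 had 2344. The log2 ratio of Mir22 ran from 7.31 to 7.91 over the libraries, and that of Mir378a from 7.20 to 8.22. The lesser arms of all 151 hairpins took 1.17% and 1.27% of hairpin counts in WT and 1.28% and 1.43% in damaged, so the order of the libraries in miR-378a was not that of all hairpins, in which WT replicate 1 was lowest.

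**Figure D3:**
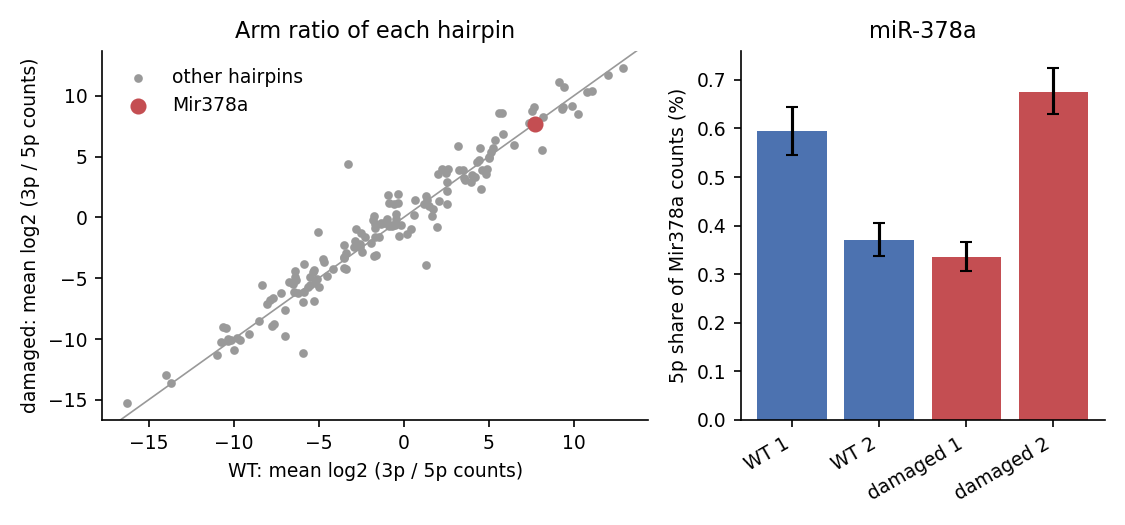
Left, mean log2 ratio of 3p to 5p counts (0.5 added to each) in damaged against WT for 151 hairpins, with the line of equal values. Right, the 5p share (%) of the miR-378a counts in single libraries with exact 95% intervals. Mir378a lies on the line at 7.7, and its 5p share is high in WT replicate 1 and damaged replicate 2.

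The other family rows stood far below miR-378a-3p, and none passed in edgeR. miR-378c had 2159 and 3348 counts in WT and 3690 and 3333 in damaged, or 478, 439.7, 538 and 443 CPM. Set against miR-378a-3p it was 2.28%, 2.62%, 2.51% and 2.85% in the same libraries, with no gap between the groups. Between groups it differed by 0.10 ± 0.16 (log2 fold change with SE), which edgeR did not call (adjusted p = 0.763).

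miR-378d had 2420 and 3739 counts in WT and 7305 and 4535 in damaged, or 536, 491, 1066 and 603 CPM. Both damaged libraries were above both WT libraries, and groups likewise did not overlap in 59.9% of the 536 tested rows. As a percentage of miR-378a-3p it was 2.55% and 2.92% in WT and 4.98% and 3.88% in damaged. The log2 fold change was 0.70 ± 0.28 (SE) with a 95% interval of -0.01 to 1.41, and did not pass in edgeR (adjusted p = 0.166). DESeq2 called it (adjusted p = 0.0382), as it did 21.2% of its rows, and limma-voom did not (adjusted p = 0.179).

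miR-378b was the scarcest, with 123 and 157 counts in WT and 121 and 79 in damaged, or 27.2, 20.6, 17.7 and 10.5 CPM. Both damaged libraries were below both WT libraries, and the groups likewise did not overlap in 59.9% of the 536 tested rows. For miR-378b edgeR gave -0.76 ± 0.38 (log2 fold change with SE, adjusted p = 0.241). In all, edgeR and limma-voom called 0 of the 5 family rows and DESeq2 called 1, and 0 had an unadjusted p under 0.05 in edgeR, where 30.8% of the 536 rows did. The median log2 fold change of the family was -0.03, against 0.02 over all tested rows. How many reads rows 1 base apart hold of each other was not tested. With miR-378a-3p, miR-378b, miR-378c and miR-378d summed the log2 fold change was -0.01 (adjusted p = 0.981), an alternative chosen after seeing the data.

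**Figure D4:**
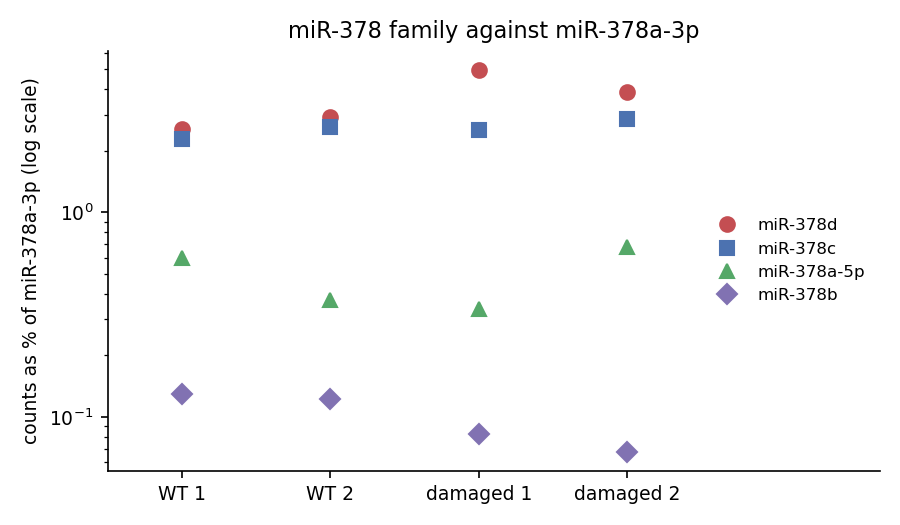
Counts of miR-378d, miR-378c, miR-378a-5p and miR-378b as a percentage of miR-378a-3p counts in each library (log axis). miR-378d lies at 2.55% and 2.92% in WT and at 4.98% and 3.88% in damaged, and miR-378c lies between 2.28% and 2.85%.

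In the order of mean CPM, miR-378a-3p stood between miR-23a-3p and miR-196a-5p, with rows of 1 mature miRNA summed. miR-143-3p (21089 CPM), a miRNA of smooth muscle and mesenchymal cells, and miR-23a-3p (19584 CPM) were the nearest above its 18682 CPM, and miR-196a-5p (18411 CPM) and let-7i-5p (13637 CPM) the nearest below. The mean of miR-378a-3p differed from those of the nearest 2 above and of miR-196a-5p by less than its own spread over libraries, which ran from 15529 to 21413 CPM, while let-7i-5p at 13004 to 14700 CPM lay below it in all 4 libraries. miR-23a-3p lay below miR-378a-3p in both WT libraries (14662 and 16787 against 20984 and 16803 CPM) and above it in both damaged libraries (21591 and 25294 against 21413 and 15529 CPM), so its place in the order rests on the mean over groups. Of these neighbours, edgeR called the rows of miR-196a-5p alone, which fell from 24050 and 23511 CPM to 11833 and 14250 CPM (lowest adjusted p = 0.0248). For miR-23a-3p the adjusted p was 0.0531 in edgeR, and DESeq2 (0.00535) and limma-voom (0.0299) called it. miR-378a-5p stood at rank 149, between miR-483-5p (91.9 CPM) and miR-871-3p (91.0 CPM), whose rows did not pass in edgeR.

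The profiles of the arms over the 4 libraries did not run together. Likeness was measured as the root mean square difference of log2 CPM, each row centred on its own mean, over 4 libraries and among rows with at least 100 CPM. Nearest to miR-378a-3p were miR-31-3p (0.086), miR-181c-5p (0.091) and miR-143-3p (0.098), against a median of 0.351 over 158 rows. miR-31-3p had 424 and 382 CPM in WT and 484 and 311 CPM in damaged, high in the same libraries as miR-378a-3p. miR-378c was at a distance of 0.117, with 4 rows nearer, and miR-378d at 0.372. miR-378a-5p was at 0.432 from its partner arm, with 100 of 158 rows nearer. Nearest to miR-378a-5p itself were miR-471-5p (0.230), miR-501-3p (0.252) and let-7g-5p (0.277), against a median of 0.498. Of these, let-7g-5p shares its order of libraries on 8506 and 6910 CPM in WT and 6987 and 8032 CPM in damaged. None of the 6 rows passed between groups (lowest adjusted p = 0.429 by edgeR).

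**Figure D5:**
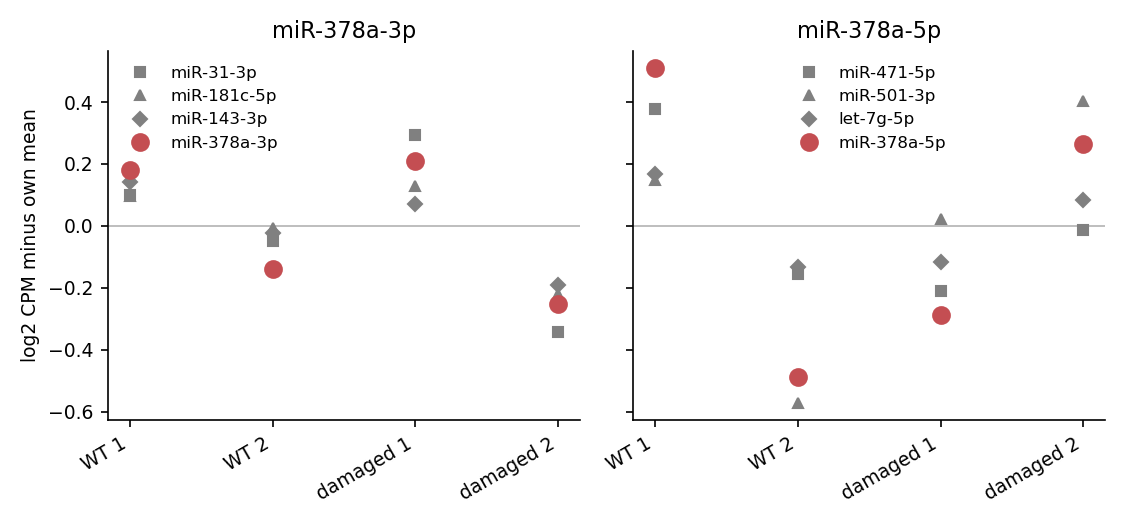
log2 CPM minus the row's own mean over 4 libraries for miR-378a-3p (left) and miR-378a-5p (right) in red, with the 3 nearest rows of each in grey. miR-378a-3p is high in replicate 1 of both groups, and miR-378a-5p in WT replicate 1 and damaged replicate 2.

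Other miRNAs made from introns of energy metabolism genes did not pass either. These were miR-33 of Srebf2, a regulator of sterol synthesis, and miR-103 and miR-107 of the Pank genes, whose enzymes start the synthesis of coenzyme A. With miR-378a they made 10 rows, 6 of them tested: both arms of miR-378a, miR-33-5p, both copies of miR-103-3p, and miR-107-3p. Of the 6, edgeR, DESeq2 and limma-voom each called 0, against 9.51%, 21.2% and 14.7% of all their rows. An unadjusted p under 0.05 in edgeR was found in 0 of the 6, against 30.8% of all rows. So few rows cannot show a difference from those shares. miR-33-5p was the next most abundant row after miR-378a-3p, at 175 ± 13.9 CPM in WT against 109 ± 59.0 CPM in the damaged libraries (SD, n = 2 each). Its log2 fold change of -0.68 was not called by edgeR (adjusted p = 0.304). The median log2 fold change of the 6 was 0.09.

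Of 12 tested rows of miRNAs known to act on mitochondria, PGC-1 or oxidative metabolism, 2 fell, 0 rose and 10 did not pass in edgeR, which called 9.51% of all tested rows. The rows that fell were miR-34a-5p, which represses the deacetylase SIRT1, with -0.69 on the log2 scale (adjusted p = 0.0275), and miR-210-3p, which represses the iron-sulphur assembly factor ISCU, with -0.86 (adjusted p = 0.0335, both by edgeR). DESeq2 called 7 of the 12 and limma-voom 4, against 21.2% and 14.7% of all their rows. The most abundant was miR-27b-3p, with a value of -0.42, followed by miR-23a-3p with 0.58, and neither passed in edgeR. DESeq2 called both (adjusted p = 0.0459 and 0.00535), and limma-voom called miR-23a-3p (0.0299) and not miR-27b-3p (0.0938). The median of the list was 0.17, and 7 of its rows had an unadjusted p under 0.05 in edgeR, as did 30.8% of all rows. The 7 called by DESeq2 and these 7 each include both copies of miR-181a-5p, rows of 1 mature miRNA that are not independent.

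Of 19 tested rows of miRNAs of myoblast differentiation, the programme in which miR-378a-3p is known to act beside MyoD, 3 rose, 2 fell and 14 did not pass in edgeR, which called 9.51% of all tested rows. DESeq2 called 11 of the 19 and limma-voom 7, against 21.2% and 14.7% of all their rows, and 11 had an unadjusted p under 0.05 in edgeR, against 30.8%. The rows that rose were the copies of miR-133a-3p, with log2 fold changes of 1.12 and 1.14, and miR-133b-3p with 1.22, all miRNAs of muscle. Those that fell were miR-322-5p, known to slow the cell cycle in mouse myoblasts, with -1.33, and its X chromosome neighbour miR-351-5p with -1.13. The copies of miR-133a-3p are rows of 1 mature miRNA with nearly equal CPM (2053 and 2035 in WT replicate 1), so they are not independent. The DESeq2 and unadjusted counts of this list also hold both copies of miR-181a-5p. The list's 4 rows at 0 all overlap an opposite-strand entry as described above. miR-206-3p and miR-27b-3p, the most abundant members, had 0.18 and -0.42 and did not pass in edgeR, and the median was 0.01. The share of possible pieces of longer RNA, given above, was higher in both damaged libraries, and its part in these changes was not tested. All edgeR calls between groups, those of miR-196a-5p and of these lists included, were lost (0 calls) when WT replicate 1, or WT replicate 2, or damaged replicate 1 was left out. No test was made of whether miR-378a changed differently from these rows. Brown fat and adipocyte markers (miR-193b, miR-365 and miR-455), of a tissue where miR-378a is abundant, took 0.0231% and 0.0272% of counts in WT and 0.0270% and 0.0320% in damaged. None of their 5 tested rows was called by edgeR, DESeq2 or limma-voom, and 1 had an unadjusted p under 0.05.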

How the data were processed

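The deposited table holds read counts per mature miRNA entry, 1 column per library, with no pooling. FastQC, BWA, featureCounts and mm10 are named in the submitters' processing notes. The command in the deposited header shows that featureCounts 2.0.1 made the counts with no option for strand, multi-mapping or multi-overlap. The trimming, aligner version and miRNA release: not given in the sources used here. All 4 value columns were mapped to samples by name. Rows were named by position in RefSeq (GRCm38.p6) and, within 3 bases, GENCODE vM21 hairpins: 2102 of 2110 rows were named, and the others held 37 counts.

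The main test was edgeR 4.0.16 (R 4.3.3), quasi-likelihood, TMM scaling, rows kept by filterByExpr (minimum count 10), a design with group alone, Benjamini-Hochberg adjustment over 536 rows at 0.05. The SE is the log2 fold change divided by the root of F. Arm use was tested with diffSpliceDGE over hairpins with both arms tested. DESeq2 1.42.0 and limma 3.58.1 served as alternatives, beside other scalings, filters, a replicate block and leaving out libraries. The tests were tried on simulated data. The exact binomial intervals of shares cover counting error only, and no molecular identifiers are given. Intervals of log2 fold changes and of the limma arm ratio include the spread between libraries. A count of 0 allows 3 counts, or 0.393 to 0.655 CPM.

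The text names the members, the 3 nearest profiles, the neighbours in level and arm ratio, and of each list the called rows and the 2 most abundant tested rows. The members and lists were chosen with earlier results of these data known. Of the list entries, those without a row in the table were left out.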

Additional observations from a re-analysis of the deposited data

How the results depend on the processing

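Neither arm nor their ratio was called in any alternative, and the sign of each small change was not stable. For miR-378a-3p the log2 fold change was 0.0879 with library totals without miR-206-3p and 0.0080 with no filter, and -0.30 to 0.17 on leaving out single libraries. For miR-378a-5p it was 0.0714 without miR-206-3p in the totals, 0.0399 with limma-voom and -0.47 to 0.43 on leaving out single libraries. Totals without miR-206-3p moved the median of all rows by 0.13; relative to that median the arms had -0.06 and -0.07. The arm ratio changed by -0.0196 and -0.0177 with limma (0.5 and 5 added counts), by -0.0213 with the replicate block and by -0.47 to 0.56 on leaving out libraries. The difference in 5p share ran from -0.147 to 0.193 points. Shares were 2.78% and 0.0136% of counts without miR-206-3p.

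Calls over all rows were 51, and 77 with upper quartile scaling, 131 with no filter, 91 with the strict filter, 109 with DESeq2, 79 with limma-voom, 81 with bias-adjusted deviance (chosen after seeing the data) and 127 with the replicate block. Without single libraries they were 0 to 30: edgeR called 0 when either WT library or damaged replicate 1 was left out (103, 124 and 144 at an unadjusted p under 0.05), where DESeq2 called 60, 75 and 77 and limma-voom 0, 0 and 70. Arm use calls were 9, and 16 with both arms at 10 or more counts, 5 with the block, 0 with limma at either added count (15 and 21 at an unadjusted p under 0.05) and 0 to 4 without single libraries (18 to 40). The cause was not tested. Deviations of same-numbered libraries had a Pearson correlation of 0.0032 across the 536 tested rows, all weighted alike. This value does not settle whether same-numbered libraries belong together. The labels name no pairs, and the main test used none. For miR-378a-5p, at 476 to 794 counts, the gaps between replicates exceeded counting error. The parts of replicate spread and of depth in the width of its interval were not tested.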
